A study of Mus musculus with 6 samples.

Results

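Metallothioneins are small cysteine-rich proteins that bind zinc and copper, and Mtf1 encodes the transcription factor that senses free zinc. The members were every probe set that the platform annotation pairs with exactly 1 symbol among Mt1, Mt2, Mt3 and Mtf1, which gave 9 of the 45037 probe sets that are not array controls: 2 for Mt1, 1 for Mt2, 1 for Mt3 and 5 for Mtf1. They were measured in the medial prefrontal cortex, a frontal brain area that takes part in the learning and suppression of fear, in 6 males of 129S1/SvImJ, an inbred strain, at an age of 8 to 10 weeks. All 6 mice had gone through fear extinction training, where the cue they had learned to fear is shown again and again with nothing following it, and were killed 2 h later for dissection of the area from both hemispheres. A control diet was given to 3 mice (mice 1, 5 and 9), and 3 (mice 3, 7 and 11) received the diet marked ZnR, a zinc diet in the words of the labels. In published work on fear extinction in this strain the abbreviation stands for dietary zinc restriction, while the labels spell out neither the abbreviation nor the zinc content or duration of the diet. Each mouse gave 1 Affymetrix Mouse430_2 array, the deposited values are on the log2 scale, and the dissected tissue holds every cell type of the region.

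When zinc inside a cell rises, MTF-1 binds short metal response elements in the promoters of Mt1 and Mt2 and switches them on, and the proteins made then hold the surplus zinc. Mt1 and Mt2 are also induced by glucocorticoids, by cytokines that act through STAT3 and by oxidative stress, and in brain they are made mainly by astrocytes, ependyma and the cells of the meninges and vessels. Mt3 is the brain form, found in astrocytes and in neurons rich in vesicular zinc, and it responds little to metals. Mt4 is a form of stratified epithelia.

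The promoters of the 3 metallothionein members are shown because Mt1 and Mt2 carry the largest differences and because MTF-1 acts on such elements. The stretches are RefSeq sequences of build GRCm38.p6, plus strand, and each ends at the base before the annotated start of its gene. They span chr8:94178839-94179088 for Mt1, chr8:94172368-94172617 for Mt2 and chr8:94152357-94152606 for Mt3. Capitals mark matches to the core letters of the metal response element, TGCACNC or TGCGCNC, on either strand.
Mt1: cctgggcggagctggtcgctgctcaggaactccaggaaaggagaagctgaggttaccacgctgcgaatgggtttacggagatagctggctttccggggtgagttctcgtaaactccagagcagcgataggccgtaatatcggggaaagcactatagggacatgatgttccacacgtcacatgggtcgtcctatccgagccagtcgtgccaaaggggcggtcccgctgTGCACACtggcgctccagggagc
Mt2: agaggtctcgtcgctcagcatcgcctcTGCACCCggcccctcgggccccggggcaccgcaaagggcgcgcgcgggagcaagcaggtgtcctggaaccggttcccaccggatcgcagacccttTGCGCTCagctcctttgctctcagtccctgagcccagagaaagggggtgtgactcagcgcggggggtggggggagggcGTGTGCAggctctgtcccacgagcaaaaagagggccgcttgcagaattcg
Mt3: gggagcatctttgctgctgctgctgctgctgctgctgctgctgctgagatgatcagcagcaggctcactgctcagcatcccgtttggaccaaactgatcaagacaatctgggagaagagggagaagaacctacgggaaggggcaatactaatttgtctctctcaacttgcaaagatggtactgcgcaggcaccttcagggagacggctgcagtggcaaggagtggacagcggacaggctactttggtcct

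Within windows from 250 bases before to 50 after the start, Mt2 held 4 matches and Mt1 held 3. In Mt2, 3 of the 4 lay before the start, at distances of 223, 128 and 50 bases, and in Mt1 1 of the 3 did, at 23 bases. The other Mt1 matches, TGCACTC and TGCGCTC, began at bases 3 and 21, with the annotated start counted as base 1. The remaining Mt2 match, GTGCGCA, began at base 5, counted the same way. Mt3 had 1 match, after its start, and the window of Mtf1 on chromosome 4 had 0. Of the 32851 promoter windows in the table, 25.7% held at least 1 match, 1.97% at least 3 and 0.517% at least 4. A match describes the letters of the window and not a site in use. Counts and distances rest on the annotated starts, which were not checked against the starts in use. Letters outside the windows were not searched, so elements there are not counted.

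Mt1, Mt2 and Mt3 were each higher on average in ZnR mice, by 1.11-fold to 1.23-fold, and none of them passed the test, while the probe sets of Mtf1 lay on both sides of 0. Of the 9 member probe sets, 8 exceeded the log2 level of 4 on at least 3 arrays and were tested together with all other probe sets that did. Limma with Benjamini-Hochberg adjustment called 0 of these 8 at an adjusted p under 0.05 (adjusted p from 0.119 to 0.964), beside 373 or 1.47% of the 25381 probe sets tested. An unadjusted p under 0.05 was reached by 2 of the 8, those of Mt1 and Mt2, beside 17% of all probe sets tested. The mice of the diets did not overlap in 3 of the 8, those of Mt1, Mt2 and Mt3, beside 23.7% of all tested.

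Mt1 was read best by probe set 1422557_s_at. It measured 12.69, 12.76 and 12.66 log2 units in control mice 1, 5 and 9, and 13.05, 12.95 and 13.01 in ZnR mice 3, 7 and 11. All ZnR mice lay above all control mice, and the gap between the groups was wider than the range within either. The means were 12.70 ± 0.05 and 13.00 ± 0.05 (SD, n = 3 per diet). The log2 difference was 0.30 ± 0.08 (moderated SE), or 1.23-fold higher in ZnR mice, with a 95% interval of 0.11 to 0.49 and a limma adjusted p of 0.119. By its unadjusted p of 0.0067 it ranked 1428 among the 25381 probe sets. The call depends on how limma estimates the spread: with a prior variance that follows the expression level, the adjusted p was 0.011, in a fit that called 916 probe sets or 3.61%. Affymetrix adds the letter s to probe sets whose probes can match transcripts of more than 1 gene. Mt1 and Mt2 are close copies of each other, the probe sequences were not analysed here, and how far the 2 readings share signal is uncertain.

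The other Mt1 probe set, 1451612_at, lay only just above the level of 4 on all 6 arrays. It measured 4.35, 4.18 and 4.21 in control mice 1, 5 and 9 and 4.37, 4.61 and 4.34 in ZnR mice 3, 7 and 11. The diets overlapped, because control mouse 1 lay above ZnR mouse 11. Its difference was 0.19 ± 0.10 (moderated SE; 95% interval -0.05 to 0.43), with a limma adjusted p of 0.409. These values lay near the array medians of 4.46 to 4.52. How far low signal compresses the difference of this probe set was not tested.

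Mt2, probe set 1428942_at, measured 11.74, 11.88 and 11.98 in control mice 1, 5 and 9 and 12.03, 12.18 and 12.24 in ZnR mice 3, 7 and 11. The groups did not overlap, though ZnR mouse 3 and control mouse 9 were nearly level. The means were 11.87 ± 0.12 in control and 12.15 ± 0.11 in ZnR mice (SD, n = 3 per diet). Mt2 was 1.21-fold higher in ZnR mice, a log2 difference of 0.28 ± 0.10 (moderated SE; 95% interval 0.05 to 0.52; limma adjusted p = 0.215). The mice that were highest for Mt1 within a diet were not the highest for Mt2: ZnR mouse 3 was the highest ZnR mouse for Mt1 and the lowest for Mt2, and control mouse 9 was the lowest control for Mt1 and the highest for Mt2.

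Mt3, the brain form, showed a smaller difference. Its probe set 1420575_at measured 11.53, 11.64 and 11.59 in control mice 1, 5 and 9, against 11.77, 11.75 and 11.68 in ZnR mice 3, 7 and 11. The groups again did not overlap, with ZnR mouse 11 just above control mouse 5. The means were 11.58 ± 0.06 and 11.73 ± 0.05 (SD, n = 3 per diet), a log2 difference of 0.15 ± 0.08 (moderated SE; 95% interval -0.04 to 0.34) and a limma adjusted p of 0.41. Mt4, the epithelial form and not a member, measured 2.46 to 2.66 on the 6 arrays, below the level needed for a test.

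**Figure D1:**
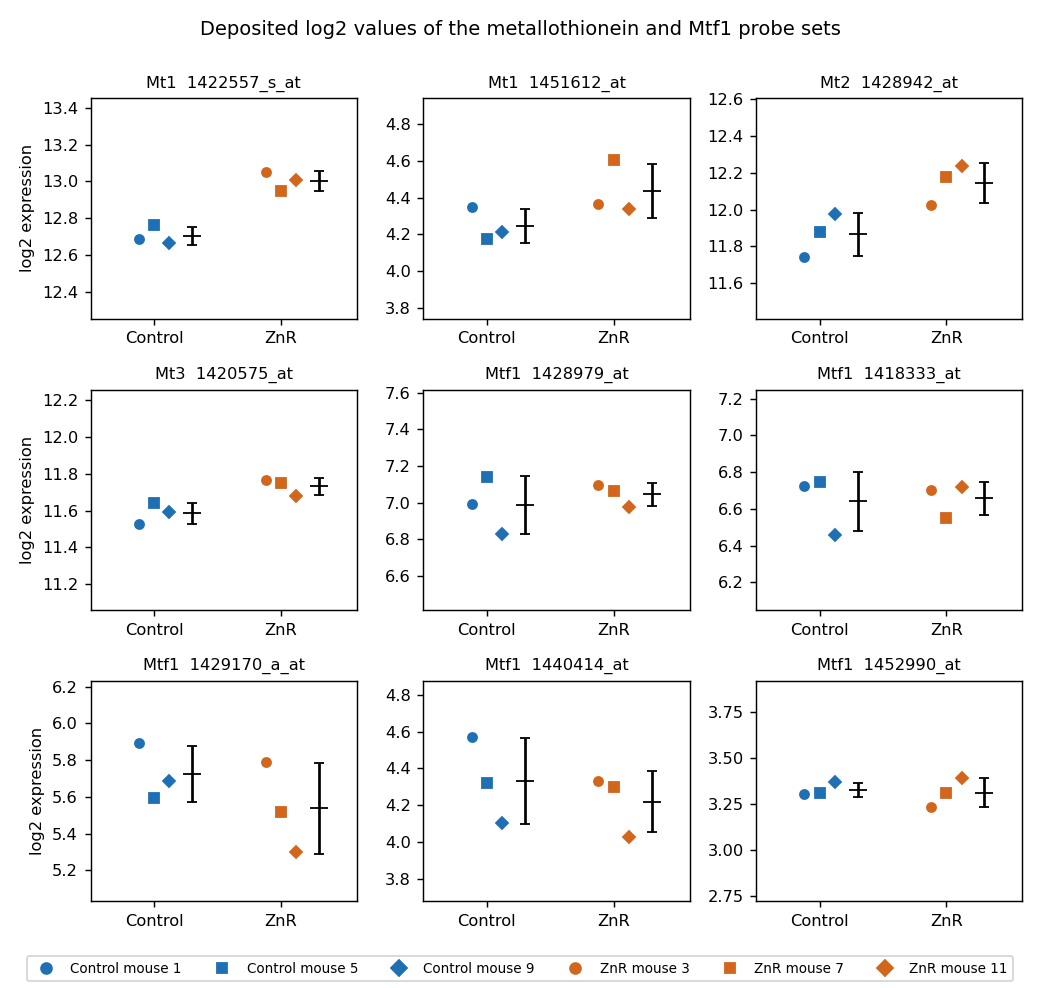
Log2 expression (y axis, a span of 1.2 units in every panel) of the 9 member probe sets in control (blue) and ZnR (orange) mice, 1 symbol per mouse, with the mean ± SD of each diet (n = 3) as a black bar. The ZnR mice sit above the control mice for Mt1 1422557_s_at, Mt2 and Mt3 and mix with them in the other 6 panels.

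Mtf1, which encodes the zinc sensor, showed no common direction over its probe sets. Its brightest probe set, 1428979_at, measured 6.99, 7.14 and 6.83 in control mice 1, 5 and 9 and 7.09, 7.07 and 6.98 in ZnR mice 3, 7 and 11. The ZnR mice lay inside the range of the controls. The log2 difference was 0.059 ± 0.10 (moderated SE; 95% interval -0.18 to 0.30; limma adjusted p = 0.824), and it was -0.021 without control mouse 9 and -0.049 when all probe sets of the gene were averaged. Probe set 1418333_at gave 0.015 ± 0.11, with control values of 6.46 to 6.75 and ZnR values of 6.55 to 6.72. The other 2 tested were lower on average in ZnR mice. These were 1429170_a_at, with a difference of -0.19 ± 0.14, control values of 5.59 to 5.89 and ZnR values of 5.30 to 5.79, and 1440414_at, with -0.11 ± 0.14, control values of 4.10 to 4.57 and ZnR values of 4.03 to 4.33. The fifth, 1452990_at, lay between 3.23 and 3.39 on all 6 arrays and was not tested. The 95% intervals were -0.24 to 0.27 for 1418333_at, -0.52 to 0.15 for 1429170_a_at and -0.44 to 0.22 for 1440414_at.

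**Figure D2:**
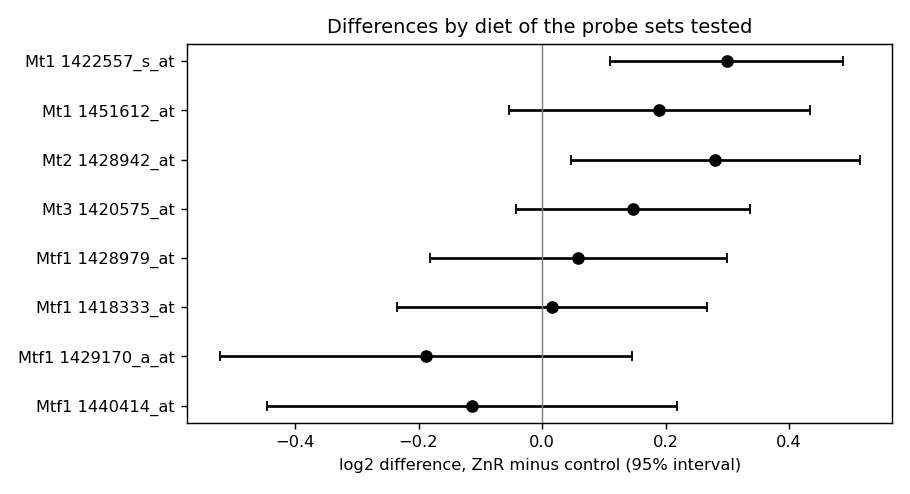
Log2 difference between ZnR and control mice (x axis) for the 8 member probe sets tested, each with its 95% interval from limma and the grey line at 0. The intervals of Mt1 1422557_s_at (0.11 to 0.49) and Mt2 (0.05 to 0.52) lie above 0 before adjustment for multiple tests, and the other 6 cross it.

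On 2 arrays, 1 per diet, the array's own 18S ribosomal RNA probe sets read low: 9.09 for control mouse 1 and 8.44 for ZnR mouse 3, where the other 4 read 10.9 to 12.4. Differences were therefore also taken inside and outside this pair. Within it, ZnR minus control was 0.36 for Mt1 1422557_s_at, 0.28 for Mt2 and 0.24 for Mt3, and between the other 4 mice it was 0.27, 0.28 and 0.10. The metallothionein differences thus had 1 direction inside and outside the pair. For Mt1 1451612_at the values were 0.018 within the pair and 0.28 outside it. With the pair as a block the adjusted p of Mt1 1422557_s_at was 0.118 and that of Mt2 was 0.126.

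Markers of astrocytes, which make metallothioneins, were higher on average in ZnR mice as well. All 10 astrocyte markers were higher on average in ZnR mice, with a median log2 difference of 0.13 beside 0.03 over the 11749 genes with a tested probe set, of which 57.6% were higher. Without 1 mouse the astrocyte median ran from 0.079 (control mouse 1 out) to 0.24 (control mouse 9 out). Among them 1 rose, Gfap, the intermediate filament gene of astrocytes, and 9 did not pass, beside 1.92% of all genes past the threshold (0.655% higher and 1.27% lower in ZnR mice). Gfap was 1.73-fold higher (0.79 ± 0.10, limma adjusted p = 0.0214), and it passed without ZnR mouse 7 (adjusted p = 0.0408) but not without any of the other 5 mice (up to 0.0952). With array weights 3 of the 10 passed, in a fit that called 2003 of 25381 probe sets. Aldh1l1, a folate enzyme gene of astrocytes, measured 0.37 ± 0.10 (limma adjusted p = 0.119). The per-mouse mean of the 10 markers ran from 10.55 to 10.71 log2 units in control and from 10.83 to 10.89 in ZnR mice, a difference of 0.24, or 0.28 inside the low-18S pair and 0.21 outside it. In bulk tissue, more cells of a type and more RNA per cell cannot be told apart.

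Each member was also set against that astrocyte mean mouse by mouse. On this measure Mt1 and Mt2 stayed slightly above 0 and Mt3 and Mtf1 lay below it. The difference between diets was 0.064 for Mt1 1422557_s_at, 0.046 for Mt2, -0.088 for Mt3 and -0.18 for Mtf1 1428979_at on the log2 scale. An exact 2-sided permutation test over mice gave p = 0.6, 0.4, 0.3 and 0.3, and after Benjamini-Hochberg adjustment over the 4 genes 0.6, 0.533, 0.533 and 0.533. With 3 mice against 3 the smallest p possible is 0.10, so this test could not have passed the threshold. The signs on this measure rest on the mean of the 10 markers, whose difference was 0.24 where their median difference was 0.13. Gfap, at 0.79, enters that mean, and no run without Gfap was made. How far astrocyte RNA enters the metallothionein values was not tested.

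Markers of cells that border the cortex were higher on average in the same arrays, and few of them passed the test. Of 8 measured markers of ependyma and choroid plexus, the lining of the ventricles, 2 rose, 6 did not pass and all 8 were higher on average, with a median of 1.01. Those past the threshold were Clic6 (1.53 ± 0.26, limma adjusted p = 0.0433) and Tmem212 (1.44 ± 0.23, 0.0374), and both passed without control mouse 1 and did not pass without any 1 of the other 5. The per-mouse mean of this list was 4.23 to 5.12 in control and 5.65 to 5.82 in ZnR mice, and Folr1 and Kcnj13, which mark choroid plexus, did not reach the level needed for a test. Ccdc153 exceeded the log2 level of 4 only in ZnR mice (4.11 to 4.23, controls 3.06 to 3.91), so passing the filter fixed its direction. It counts among the 8, in their median and in the per-mouse mean. Tmem212, Foxj1 and Ttr also read below 4 in at least 1 control, down to 3.60, 3.42 and 3.15. The 3 measured markers of leptomeningeal fibroblasts had a median of 0.88 with 0 past the threshold, per-mouse means of 6.39 to 7.17 in control and 6.97 to 8.14 in ZnR mice, and both Igf2 (0.88 ± 0.29) and Dcn (1.09 ± 0.40) overlapping between diets. Among 6 endothelial markers 0 passed and the median was 0.10, which ran from 0.035 without ZnR mouse 3 to 0.17 without ZnR mouse 7. Cldn5, a tight junction gene, measured 0.34 ± 0.12 and Pecam1, an adhesion molecule gene, 0.24 ± 0.15. The part of these cells in the metallothionein values was not tested.

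Excitatory neuron markers, which define cortical tissue, were detected in all mice and were lower in ZnR mice. Of the 6 measured, 5 fell and 1 did not pass, with per-mouse means of 10.35 to 10.49 in control and 9.39 to 9.60 in ZnR mice. Nrn1, a neuritin gene, differed by -1.27 ± 0.10 (limma adjusted p = 0.00624) and Slc17a7, the vesicular glutamate transporter gene, by -1.08 ± 0.12 (0.0182). The count fell to 0 without control mouse 5 and lay between 1 and 3 without each of the others. Mt3, which neurons also make, lay on the other side, with all 3 ZnR mice above all 3 controls. Of 7 oligodendrocyte markers 0 passed, and their median of 0.36 was 0.15 without ZnR mouse 11. The myelin genes Cnp and Mobp measured 0.35 ± 0.14 and 0.37 ± 0.18. Of 7 microglia markers 0 passed, and their median of -0.10 was -0.037 without control mouse 1 and -0.055 without ZnR mouse 11. The complement gene C1qb measured 0.14 ± 0.08 and the purinergic receptor gene P2ry12 -0.16 ± 0.12. Of 8 measured markers of striatal medium spiny neurons 2 rose, Gpr6 (0.58 ± 0.08, limma adjusted p = 0.0275) and Drd2 (0.89 ± 0.16, 0.0461), with a median of 0.53, and both calls were lost whichever mouse was left out.

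**Figure D3:**
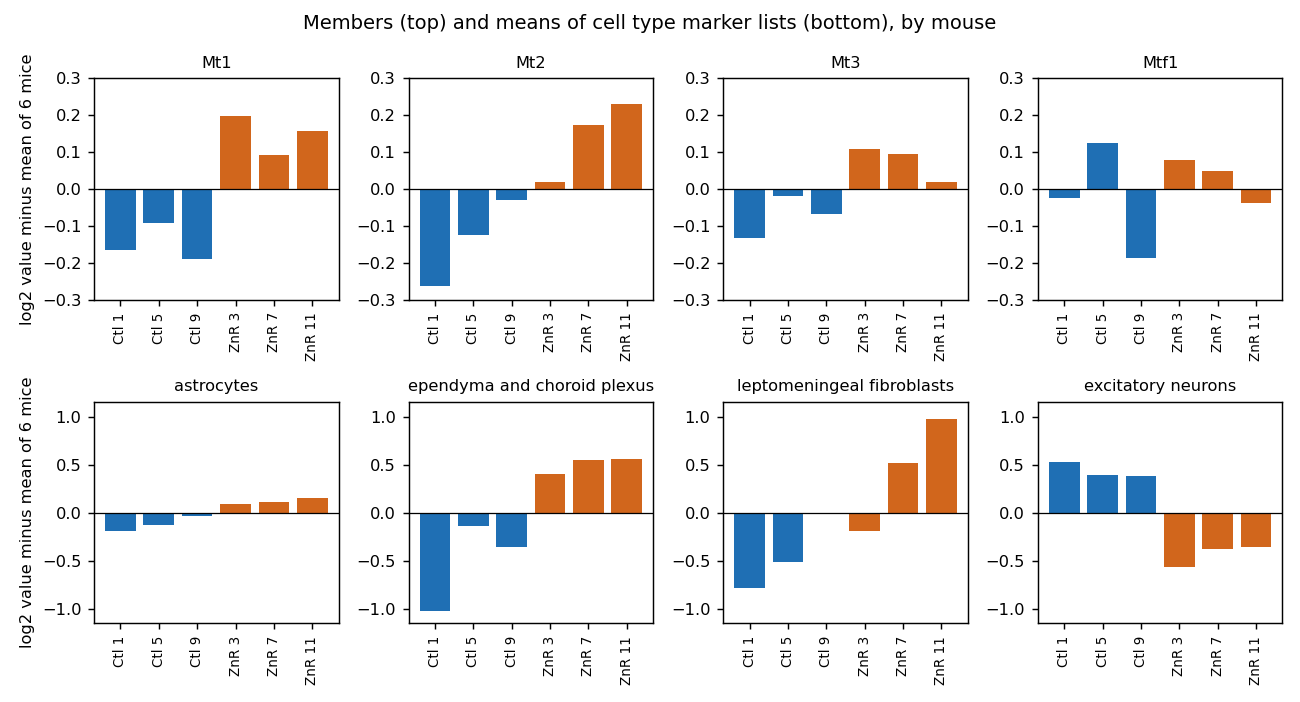
Log2 value minus the mean of all 6 mice (y axis) for each mouse, control in blue and ZnR in orange, for the 4 member genes (top, scale -0.3 to 0.3) and for the means of 4 marker lists (bottom, wider scale). Mt1, Mt2 and Mt3 are below 0 in every control and above 0 in every ZnR mouse, as are the astrocyte and the ependyma and choroid plexus means, while the excitatory neuron mean runs the other way and Mtf1 shows no split.

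Of 9 other measured genes that MTF-1 is known to act on, 0 passed the threshold. With array weights 1 of the 9 passed as higher, in a fit that called 2003 of 25381 probe sets. On average 7 were higher and 2 lower, where 57.6% of all genes were higher. The diets did not overlap in 4 of the 9, beside 23.7% of all probe sets tested, namely Csrp1, Ndrg1 and Gclc, which were higher in ZnR mice, and Slc39a10, which was lower. The median log2 difference, which pools induced genes with the repressed Slc39a10, was 0.09, and it was 0.0067 without control mouse 9 and 0.021 without ZnR mouse 7, beside 0.03 over all genes. Csrp1, which encodes a LIM-domain protein, measured 0.30 ± 0.11 (limma adjusted p = 0.208). Slc39a10, a zinc importer gene that MTF-1 represses, measured -0.20 ± 0.08 (0.265), with no overlap between the diets. Slc30a1, the plasma membrane zinc exporter whose gene responds to zinc together with Mt1, measured 0.017 ± 0.09 (0.95). Promoter windows were in the table for 6 of the 9, and 3 of these held at least 1 match to the core: Csrp1 with 3, Selenow with 2 and Slc30a1 with 2.

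Zinc transporter genes as a whole did not share a direction. Of 8 measured exporters of the ZnT family 1 fell and 7 did not pass (median 0.01), and of 12 measured ZIP importers 0 passed (median 0.049). Without 1 mouse these medians took either sign, from -0.016 to 0.056 for exporters and from -0.017 to 0.086 for importers. The one that fell was Slc30a3, the transporter that fills synaptic vesicles with zinc, with 7.54 ± 0.22 log2 units in control and 6.36 ± 0.07 in ZnR mice (SD, n = 3 per diet), or 2.26-fold lower in ZnR mice (-1.17 ± 0.12, limma adjusted p = 0.016). It did not pass without control mouse 5 (adjusted p = 0.0811), ZnR mouse 3 (0.0732) or ZnR mouse 11 (0.0673). The excitatory neuron markers, lower in the same mice, had a median of -0.93 and ran from -1.27 to -0.18. Whether the fall of Slc30a3 is separate from theirs was not tested. Slc30a10 measured 0.44 ± 0.13 (0.145) and Slc39a12, an importer gene expressed in astrocytes, 0.20 ± 0.12 (0.464).

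The lists for other known inducers of Mt1 and Mt2 gave 1 call in the chosen fit. Of 12 glucocorticoid-induced genes 0 passed, with 5 higher and 7 lower on average. Their median was -0.028, which ran from -0.087 to 0.041 without 1 mouse. With array weights 1 of the 12 fell, in a fit that called 2003 of 25381 probe sets. Cdkn1a, a cell cycle inhibitor gene, measured -0.33 ± 0.10 (limma adjusted p = 0.143) and Pdk4, a mitochondrial kinase gene, 0.33 ± 0.18 (0.41). Of 7 STAT3 and acute-phase genes 1 rose, 6 did not pass, and 5 were lower on average, with a median of -0.29. The one that rose was Il6st, which encodes the gp130 receptor subunit (0.42 ± 0.08, adjusted p = 0.0499). Leaving out any 1 of the 6 mice ended this call (adjusted p from 0.0933 to 0.174). With all mice kept it was also lost with no filter on low values (0.0625), after renewed quantile normalization (0.0523) or median centring (0.0529), with a robust prior (0.053) and with a block for the arrays of low 18S (0.0516). Serpina3n, an acute-phase protease inhibitor gene, measured -0.44 ± 0.09 (0.0637). The diets did not overlap in 5 of the 7, beside 23.7% of all probe sets tested, with Il6st higher and the others lower. Socs3, among these 5, exceeded the log2 level of 4 only in control mice (4.13 to 4.36, ZnR mice 3.58 to 3.89). Passing the filter thus fixed its direction, and it also counts among the 5 lower on average and in the median. Some other fits called falls in this list. The prior that follows the expression level gave 1, in a fit that called 916 of 25381 probe sets. Array weights gave 2, beside 2003 of 25381. A filter at log2 6 gave 1 among 4 measured, beside 501 of 16485. Of 6 oxidative stress genes 0 passed, with a median of 0.15, which was 0.084 without control mouse 1. Srxn1, the sulfiredoxin gene, measured 0.18 ± 0.09 (0.34) and Nfe2l2, which encodes NRF2, 0.18 ± 0.09 (0.389).

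**Figure D4:**
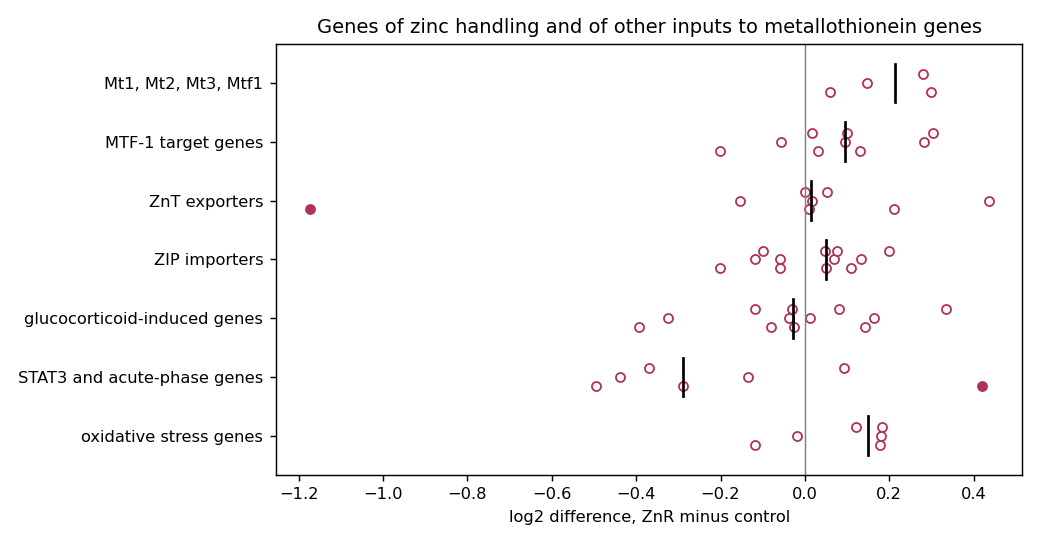
Log2 difference between ZnR and control mice (x axis) for the 4 member genes and for the genes of 6 lists, 1 circle per gene, filled where the limma adjusted p was under 0.05, with a black line at each list's median. Slc30a3 (-1.17) and Il6st (0.42) are the filled circles, and the 4 members lie between 0.06 and 0.30.

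The metallothionein genes lie side by side on chromosome 8 in the order Mt4, Mt3, Mt2, Mt1, between Bbs2 and Nup93. Bbs2, a gene of the primary cilium, measured 0.30 ± 0.10 (limma adjusted p = 0.187) and Nup93, a nuclear pore gene, 0.21 ± 0.13 (0.478). These neighbours were chosen by position after the member values had been seen. Ogfod1, beyond Bbs2, measured -0.0017 ± 0.076. Beside Mtf1 on chromosome 4, Inpp5b measured 0.066 ± 0.10 and 1110065P20Rik -0.022 ± 0.098.

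The genes whose log2 values followed each member most closely were found by Pearson's r over the 6 arrays among 11745 other genes. The r was taken over the mice of both diets together, so a difference between diets enters it. The arrays also share their normalization, and 6 points are few. An r over 0.9 was reached by 503 genes for Mt1, 414 for Mt2, 432 for Mt3 and 65 for Mtf1. For Mt1 the closest were Rps4x, H2az2 and Hmgn1 (r from 0.994 to 0.997), for Mt2 Fam210b, Rps6 and Cdc14a (0.995 to 0.999), for Mt3 Rpl7, Srxn1 and Chordc1 (0.994 to 0.996), and for Mtf1 G3bp1, Pikfyve and Slc31a2 (0.975 to 0.99). None of these 12 passed the threshold between diets. Srxn1 was also in the oxidative stress list.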

How the data were processed

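Biotin-labelled targets were made from 500 ng of total RNA per mouse and hybridised to Mouse430_2 arrays, per the labels' protocols. The values are log2 expression per probe set, 1 column per mouse, as the authors deposited them. The submitters' processing notes name GCRMA 2.28.0 and R 2.15.1. This method corrects background by probe sequence and normalizes between arrays, so differences at low signal can be compressed and a change of total RNA is not seen.

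Of 45101 probe sets, 64 were array controls. The others had 1 gene symbol (34945), several (932) or none (9160) in the platform annotation, and 34741 matched RefSeq GRCm38.p6 by Entrez identifier. Probe sets above log2 4 on at least 3 of 6 arrays were compared by diet with limma 3.58.1 (R 4.3.3, lmFit, eBayes, 2-sided, Benjamini-Hochberg over 25381 probe sets, threshold 0.05). The procedure was also run on simulated data, with changes larger than any member difference. That run does not show whether changes of the members' size would be called. A ± after a difference is the moderated SE. Fold is 2 to the power of the log2 difference. A gene with several tested probe sets is represented by the brightest on average.

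All members' probe sets were named, and of each list the 2 genes with the smallest p. The 3 genes closest to each member, and Mt4, were named too. Slc30a1, Selenow, Ndrg1, Gclc, Folr1, Kcnj13, Ccdc153, Foxj1, Ttr, Socs3 and the neighbours were added after values were seen. The members and lists were chosen with earlier results of these data known. Plots used Python 3.11.15 and matplotlib 3.10.9. The number of arrays limits the precision.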

Additional observations from a re-analysis of the deposited data

How the results depend on the processing

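Mt1, Mt2 and Mt3 kept their direction in every alternative run, and the Mtf1 difference did not. Limma's trended prior moved Mt1 1422557_s_at past the threshold (0.30, adjusted p = 0.011). Over its other alternatives, leaving out a mouse included, the adjusted p of Mt1 ranged from 0.06 to 0.387. Mtf1 1428979_at turned to -0.069 with array weights and -0.049 as the mean of its probe sets, and 1418333_at turned to -0.056 with array weights. Without 1 mouse each, Mt1 1422557_s_at ranged from 0.27 to 0.33, Mt2 from 0.22 to 0.34, Mt3 from 0.12 to 0.17, Mt1 1451612_at from 0.11 (ZnR mouse 7 out) to 0.24, Mtf1 1429170_a_at from -0.32 (ZnR mouse 3 out) to -0.071 (ZnR mouse 11 out), Mtf1 1428979_at from -0.021 (control mouse 9 out) to 0.14, Mtf1 1418333_at from -0.077 to 0.068 and Mtf1 1440414_at from -0.23 to 0.0073. Among these, 1418333_at was below 0 when control mouse 9 (-0.077), ZnR mouse 3 (-0.0063) or ZnR mouse 11 (-0.015) was left out, and 1440414_at was above 0 when control mouse 1 was. Set against astrocyte markers, no member changed sign under the alternatives run, and Mt1 ranged from 0.0019 to 0.099. Of all probe sets, 373 passed in the chosen fit, 916 with the trended prior, 2003 with array weights, 1 without the low-18S pair (added after seeing the data) and 1 to 109 without 1 mouse each (101, 1 and 77 with control mouse 1, 5 or 9 left out, and 18, 109 and 21 with ZnR mouse 3, 7 or 11 left out). The causes were not tested. Fits that left out a mouse have fewer samples. No paired analysis was possible because the labels give the mice of the diets no number in common; the low-18S block is a batch term. Signal near the floor limits Mt1 1451612_at and Mtf1 1440414_at.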
